A study of Mus musculus with 24 samples.

Results

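The 8 genes described here are 7 receptors for extracellular nucleotides and adenosine, together with Entpd1, which encodes the surface enzyme CD39. They were found by matching the Ensembl identifiers of the deposited count tables to the symbols Adora2a, Adora2b, P2rx4, P2rx7, P2ry2, P2ry6, P2ry14 and Entpd1 in the GENCODE M21 annotation, which gave 8 of 43629 identifiers. The cells were mouse bone marrow-derived macrophages, a primary macrophage culture, of wild type C57BL/6 background. Bone marrow cells were cultured to day 7 in 20 ng/mL CSF-1, a cytokine that drives macrophage differentiation, and CSF-1 stayed in the medium of every group. The 8 groups of 3 libraries were unstimulated cells, cells given lipopolysaccharide (LPS), cells given LPS with 50 ng/mL IFNg, and cells given 20 ng/mL IL-4, each taken at 1 h or 18 h. LPS is stated at either of a pair of doses that are not tied to libraries, and the age of the mice is not stated. Nothing states that the 3 libraries of a group came from separate mice or cultures, so the p-values rest on a spread among libraries that may be only technical.

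Cells under stress or stimulation release ATP, and ATP outside the cell is a signal. P2X receptors are ion channels opened by ATP, whereas P2Y receptors are G protein-coupled and respond to ATP, ADP, UTP, UDP or UDP-sugars. CD39 strips phosphates from ATP and ADP to leave AMP, CD73 (encoded by Nt5e) turns AMP into adenosine, and the adenosine receptors encoded by Adora2a and Adora2b raise cyclic AMP. In macrophages, P2rx7 is known for inflammasome activation by ATP, and the cyclic AMP arm is known for restraining inflammatory cytokines.

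Levels are given as CPM, read counts put on a common depth, scaled between libraries by the trimmed mean of M-values (TMM), with the SD over the 3 libraries. Differences are log2 fold changes with their standard error (SE) from edgeR's quasi-likelihood test, and a gene was called when its p, adjusted by Benjamini-Hochberg over the 12765 genes tested, was below 0.05. Total counts ran from 4181890 to 8122945 per library, and all 8 genes passed the filter on low counts. Adora2a passed through its LPS groups, since it held 6, 4 and 3 reads in the unstimulated libraries at 1 h and 4, 2 and 1 at 18 h. The second libraries of LPS at 18 h and of IL-4 at 18 h stood apart from the others of their groups, and no call of the 8 genes in the 6 comparisons they enter was lost when both were left out. All 8 of the macrophage markers listed were tested and summed to between 10202 and 25664 CPM in every library, while B cell markers summed to at most 3.23 CPM. T cell markers summed to at most 8.45 CPM, of which Cd4 alone passed the filter, and Cd3e was at 0 in all libraries. A lower level in a bulk library can come from fewer cells of a kind or from less RNA per cell, and these cannot be told apart.

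In the GRCm38 build, Adora2a (ENSMUSG00000020178) spans chr10:75316877-75334784 and Adora2b (ENSMUSG00000018500) spans chr11:62248984-62266453, each on the forward strand. P2rx7 (ENSMUSG00000029468) at chr5:122643911-122691432 and P2rx4 (ENSMUSG00000029470) at chr5:122707544-122729738 follow one another on the forward strand of chromosome 5. P2ry6 (ENSMUSG00000048779) at chr7:100937630-100974649 and P2ry2 (ENSMUSG00000032860) at chr7:100996568-101012866 are likewise neighbours on the reverse strand of chromosome 7. P2ry14 (ENSMUSG00000036381) at chr3:59113855-59153618 lies on the reverse strand inside Med12l, which runs the other way and shares 0 exon bases with it. Entpd1 (ENSMUSG00000048120) spans chr19:40612366-40741602 on the forward strand. Of the 8 genes, P2rx7 alone shared annotated exon bases with another counted gene, 119 bases of the miRNA gene Mir8115 on the same strand.

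RefSeq promoter windows (GRCm38.p6, 250 bases before to 50 after a transcript start) were given for 6 of the 8 genes. The stretches of 250 bases before a start, which hold 0 annotated exon bases, are printed for 2 pairs of genes. Adora2b and P2ry2 were raised by LPS at 1 h and were lower with LPS and IFNg than with LPS. P2ry14 and Entpd1 had their highest level with LPS and IFNg at 18 h. Each stretch is 5′ to 3′ on the gene's own strand, and capitals mark matches to the motifs searched. Adora2b is chr11:62248734-62248983, P2ry2 is chr7:101012054-101012303, P2ry14 is a start within the gene at chr3:59131329-59131578, and Entpd1 is a start within the gene at chr19:40659520-40659769.
Adora2b: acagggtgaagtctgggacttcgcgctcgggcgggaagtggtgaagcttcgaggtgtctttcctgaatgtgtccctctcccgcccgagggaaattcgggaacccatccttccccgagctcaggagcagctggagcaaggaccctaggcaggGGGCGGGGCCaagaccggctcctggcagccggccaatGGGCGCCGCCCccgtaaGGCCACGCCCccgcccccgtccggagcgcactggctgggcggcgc
P2ry2: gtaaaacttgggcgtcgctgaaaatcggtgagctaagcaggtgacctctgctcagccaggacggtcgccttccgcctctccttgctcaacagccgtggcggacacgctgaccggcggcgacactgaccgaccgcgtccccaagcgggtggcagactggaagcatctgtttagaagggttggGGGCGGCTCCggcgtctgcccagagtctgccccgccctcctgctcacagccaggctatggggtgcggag
P2ry14: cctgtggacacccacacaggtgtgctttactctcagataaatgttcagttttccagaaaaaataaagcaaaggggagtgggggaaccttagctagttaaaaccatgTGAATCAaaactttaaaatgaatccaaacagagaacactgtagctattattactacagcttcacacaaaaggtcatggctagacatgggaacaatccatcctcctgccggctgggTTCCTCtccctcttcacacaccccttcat
Entpd1: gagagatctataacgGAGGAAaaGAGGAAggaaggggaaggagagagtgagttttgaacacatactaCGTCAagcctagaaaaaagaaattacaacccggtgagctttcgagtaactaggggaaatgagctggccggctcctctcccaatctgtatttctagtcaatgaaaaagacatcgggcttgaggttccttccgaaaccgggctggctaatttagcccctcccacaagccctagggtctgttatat
The letters searched on both strands included GGGNNNNNCC for NF-kappaB, TTCNNNNGAA for STAT6, GAAANNGAAA for the interferon response element, TGANTCA for AP-1, TGACG for a cyclic AMP response element core, ACGTG for the hypoxia response core and GAGGAA for PU.1. The loose NF-kappaB letters stood in 50.8% of all 32851 windows, those of PU.1 in 28.3%, the cyclic AMP core in 20.8%, the hypoxia core in 19.6%, AP-1 in 7.81%, STAT6 in 6.95% and the interferon element in 3.44%. The Adora2b stretch, with 69.6% G and C, held the NF-kappaB letters at positions -99, -62, -61 and -45 from the start, of which those at -62 and -61 overlap on opposite strands. P2ry2 held them once, at -69. The windows of P2rx4 and P2rx7, which are not printed, held the NF-kappaB letters too, at -60 and -59 and at -15. The P2ry14 stretch, with 43.6% G and C, held AP-1 letters at -144 and PU.1 letters at -29. Entpd1 held PU.1 letters at -235 and -227 and the cyclic AMP core at -183. A further P2ry14 start has its NF-kappaB match at -103 (chr3:59130846-59130875), shown in capitals within 30 bases.
P2ry14: aggtgagactGGACTTTCCCtacgttcagc
The STAT6 and interferon element letters were in 0 of the windows of the 6 genes. A match is a run of letters and no measurement of binding, and a window without one says only that these letters are not in it.

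Both adenosine receptors responded to LPS at both times. LPS raised Adora2a from a trace to a clear signal within 1 h and further by 18 h, and LPS with IFNg did not differ from LPS detectably at 18 h. Adora2b was already present, rose with LPS at both times, and was lower with LPS and IFNg than with LPS alone.

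Adora2a, a Gs-coupled receptor for adenosine, was at 0.829, 0.588 and 0.563 CPM in unstimulated libraries at 1 h and at 8.95, 6.74 and 9.51 CPM with LPS. The groups did not overlap, and the log2 fold change was 3.60 ± 0.33 (adjusted p = 3.6e-10). At 18 h the unstimulated libraries held 0.677, 0.298 and 0.157 CPM, those with LPS 17.1, 16.9 and 13.05 CPM, and those with LPS and IFNg 13.04, 18.8 and 16.7 CPM. Every stimulated library lay far above every unstimulated one, whereas the LPS and the LPS with IFNg libraries overlapped. The rise at 18 h was 5.33 ± 0.32 (adjusted p = 5.9e-15) with LPS, with a 95% interval that ran from 4.70 to 5.96, and 5.37 ± 0.32 (adjusted p = 2.5e-15) with LPS and IFNg. LPS with IFNg against LPS differed by 0.03 ± 0.16 (adjusted p = 0.89) at 18 h, with an interval from -0.28 to 0.35. At 1 h the mean was 5.55 ± 0.688 CPM with LPS and IFNg against 8.40 ± 1.47 with LPS, a difference of -0.59 ± 0.22 (adjusted p = 0.097) that was not called. With IL-4 the libraries held 0.617, 0.345 and 0.332 CPM at 1 h and 1.25, 0.446 and 0.611 CPM at 18 h, and neither difference from unstimulated cells was called (adjusted p = 0.8 and 0.19). In order of mean level, LPS with IFNg and LPS at 18 h overlapped at the top, LPS at 1 h and LPS with IFNg at 1 h followed without overlap, and the 4 groups without LPS overlapped at the bottom, under 1 CPM on average.

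Adora2b, the lower-affinity Gs-coupled adenosine receptor, was at 12.9, 10.6 and 12.2 CPM in unstimulated libraries at 1 h and at 2.88, 2.09 and 2.51 CPM at 18 h. The libraries at 18 h all lay below those at 1 h, with a log2 change of -2.25 ± 0.24 (adjusted p = 9.9e-08). With LPS the libraries held 43.8, 31.0 and 45.3 CPM at 1 h and 43.5, 42.9 and 48.0 CPM at 18 h. These overlapped with each other and lay above all unstimulated libraries, so that the LPS response was 1.75 ± 0.15 (adjusted p = 1.5e-10) at 1 h and 4.17 ± 0.20 (adjusted p = 2.3e-17) at 18 h. The mean with LPS was 40.0 ± 7.85 CPM at 1 h and 44.8 ± 2.78 CPM at 18 h, while the unstimulated mean went from 11.9 ± 1.17 to 2.49 ± 0.396 CPM. With LPS and IFNg the libraries held 28.3, 22.1 and 33.2 CPM at 1 h and 13.7, 12.1 and 17.0 CPM at 18 h. At 18 h each of them lay below each LPS library, a difference of -1.65 ± 0.15 (adjusted p = 1.3e-10), though still above unstimulated cells (2.52 ± 0.24, adjusted p = 9.3e-11). The difference between LPS with IFNg and LPS at 1 h was -0.51 ± 0.14 (adjusted p = 0.011), and the groups overlapped. That call was lost without LPS replicate 1 (adjusted p = 0.1), LPS replicate 3 (0.085) or LPS with IFNg replicate 2 (0.11).

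IL-4 also raised Adora2b, with 9.87, 10.1 and 9.31 CPM at 18 h and a log2 fold change of 1.98 ± 0.24 (adjusted p = 1.3e-07). The 3 IL-4 libraries all lay above the unstimulated ones of that time. The IL-4 libraries at 1 h held 17.3, 15.0 and 20.1 CPM, a difference of 0.56 ± 0.16 (adjusted p = 0.034), but this call was lost on leaving out any of 5 of the 6 libraries, with adjusted p from 0.054 to 0.2 among them. It held without IL-4 replicate 2 alone (adjusted p = 0.022). IL-4 was lower than LPS with IFNg at 18 h, with a log2 difference of -0.54 ± 0.17 (adjusted p = 0.0067), a call lost without LPS with IFNg replicate 3 (adjusted p = 0.062) and with library-size scaling (-0.07, adjusted p = 0.73). In order of mean level, LPS at 18 h, LPS at 1 h and LPS with IFNg at 1 h overlapped each with the next at the top. IL-4 at 1 h, LPS with IFNg at 18 h and unstimulated cells at 1 h did so in the middle, and IL-4 at 18 h and unstimulated cells at 18 h were each separate below them.

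**Figure D1:**
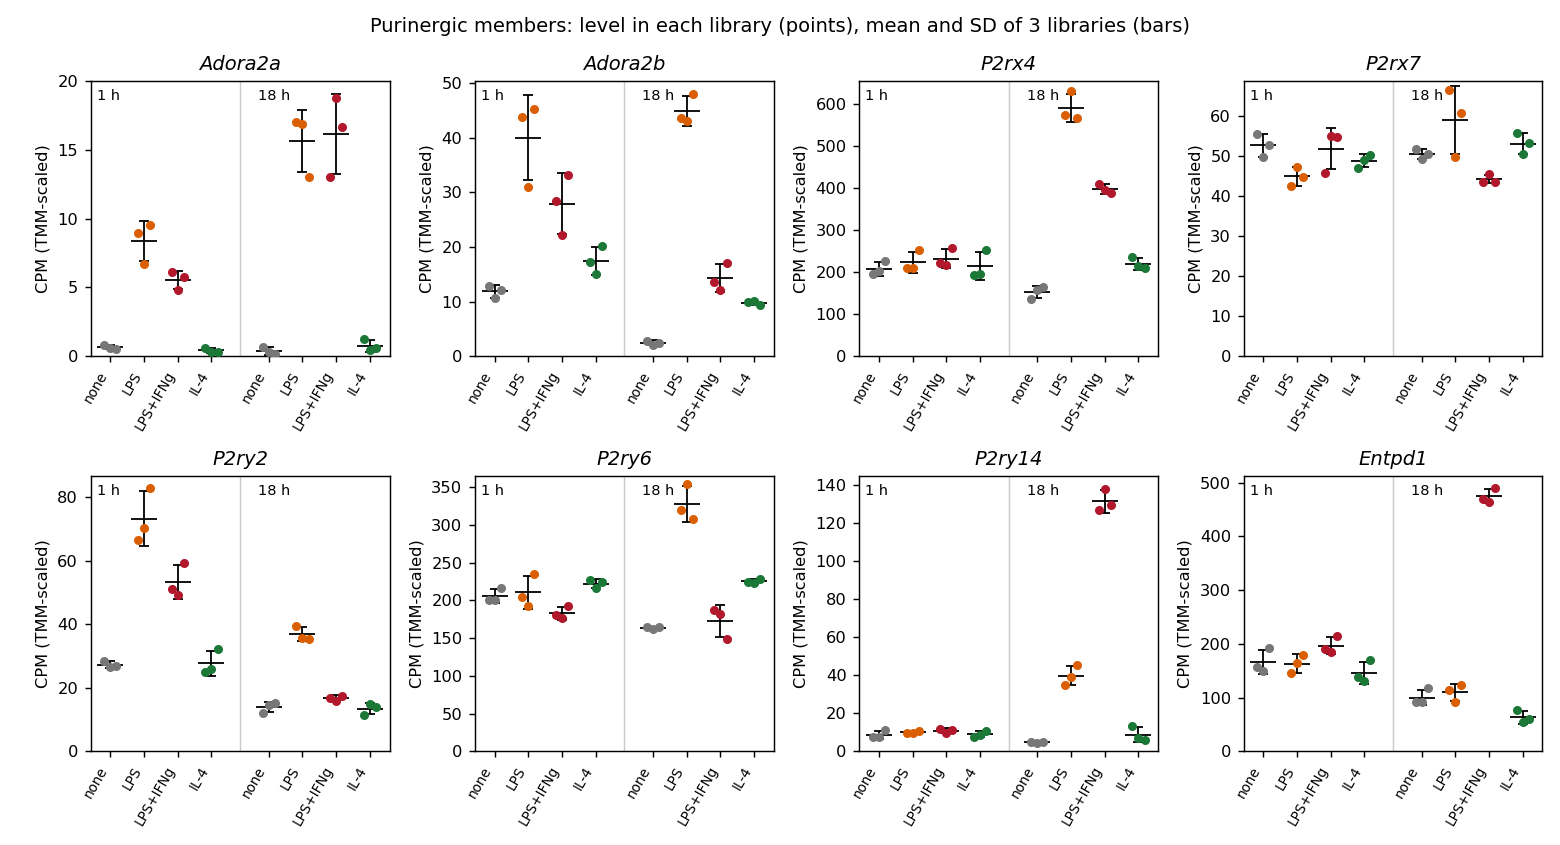
Level of each of the 8 genes in TMM-scaled CPM (linear axis from 0) in every library, with points for libraries and bars for the mean and SD of 3 libraries, for 1 h at the left and 18 h at the right of each panel. Adora2a is near 0 without LPS, Entpd1 and P2ry14 stand highest with LPS and IFNg at 18 h, and P2rx4 and P2ry6 stand highest with LPS alone at 18 h. Adora2b has its highest mean there too, but overlaps LPS at 1 h.

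The P2X receptors behaved differently from each other. P2rx4 rose with every stimulus at 18 h and with none at 1 h, while P2rx7 moved by less than 1.5-fold in every comparison with TMM scaling.

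P2rx4, an ATP-gated channel found largely on lysosomes, was at 136, 157 and 164 CPM in unstimulated libraries at 18 h. LPS libraries held 573, 629.8 and 568 CPM, LPS with IFNg libraries 410.3, 395 and 389 CPM and IL-4 libraries 236, 215 and 209 CPM. None of these 4 groups overlapped another. The changes were 1.95 ± 0.10 (adjusted p = 9e-17) with LPS, 1.39 ± 0.10 (adjusted p = 1.6e-13) with LPS and IFNg, and 0.53 ± 0.10 (adjusted p = 6.6e-05) with IL-4. LPS with IFNg was lower than LPS, with a log2 difference of -0.57 ± 0.09 (adjusted p = 9.2e-06). Means of the 4 groups at 1 h lay between 208 ± 16.0 and 232 ± 23.2 CPM, and the adjusted p of the 3 stimuli ran from 0.24 to 0.93. Unstimulated cells were lower at 18 h than at 1 h (-0.44 ± 0.10, adjusted p = 0.0025). LPS at 18 h was the highest group, LPS with IFNg at 18 h came next, unstimulated cells at 18 h were lowest, and the other 5 groups overlapped each with the next between them.

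P2rx7, the ATP receptor of the inflammasome, was at 51.6, 49.2 and 50.3 CPM in unstimulated libraries at 18 h and at 66.3, 49.6 and 60.7 CPM with LPS. One LPS library lay within the unstimulated range, and the difference of 0.23 ± 0.09 (adjusted p = 0.027) was called. It lost the call without LPS replicate 1 (0.14, adjusted p = 0.23), LPS replicate 3 (adjusted p = 0.073), or unstimulated replicate 2 or 3 (0.073 and 0.051), and turned to -0.19 (adjusted p = 0.075) with library-size scaling. With LPS and IFNg the libraries held 43.5, 45.3 and 43.6 CPM, all below the LPS libraries, a difference of -0.42 ± 0.09 (adjusted p = 0.00035) against LPS and of -0.19 ± 0.09 (adjusted p = 0.062) against unstimulated cells, the latter not called. With library-size scaling the last value was -0.73 (adjusted p = 9.4e-08). In the order of group means, from 44.1 ± 1.05 CPM with LPS and IFNg at 18 h to 58.9 ± 8.49 CPM with LPS at 18 h, each group overlapped the next. The 1 h responses were not called for LPS (-0.23 ± 0.09, adjusted p = 0.079), LPS with IFNg (-0.02 ± 0.09, adjusted p = 0.89) or IL-4 (-0.11 ± 0.09, adjusted p = 0.68).

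Per length the 2 channels can be set side by side. Their ratio in RPKM, which is CPM per kilobase of annotated exon, P2rx4 over P2rx7, was 2.57 ± 0.296 in unstimulated cells at 18 h, 8.69 ± 1.84 with LPS, 7.67 ± 0.317 with LPS and IFNg and 3.53 ± 0.154 with IL-4 (SD, n = 3). All LPS and LPS with IFNg libraries at 18 h had a higher ratio than all other libraries.

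The P2Y receptors fell into 3 patterns. P2ry2 was raised early by LPS, P2ry6 was high throughout and rose at 18 h with LPS and with IL-4, and P2ry14 rose late with LPS and more with LPS and IFNg.

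P2ry2, a receptor for ATP and UTP, was at 28.5, 26.4 and 27.0 CPM in unstimulated libraries at 1 h. LPS libraries held 66.5, 70.3 and 83.1 CPM and LPS with IFNg libraries 51.1, 49.4 and 59.4 CPM at that time. The 3 groups did not overlap, and the changes were 1.42 ± 0.11 (adjusted p = 8.1e-12) with LPS and 0.96 ± 0.11 (adjusted p = 2.6e-08) with LPS and IFNg, and LPS with IFNg differed from LPS by -0.45 ± 0.10 (adjusted p = 0.002). The unstimulated libraries at 18 h held 12.2, 14.6 and 15.2 CPM, a change of -0.96 ± 0.13 (adjusted p = 4.2e-06) from 1 h, and those with LPS held 39.6, 35.9 and 35.4 CPM. The LPS response at 18 h, 1.40 ± 0.13 (adjusted p = 7.2e-11), was close to that at 1 h, and the test of the difference between them gave -0.02 ± 0.17 (adjusted p = 0.93). LPS with IFNg libraries held 16.9, 15.7 and 17.6 CPM at 18 h, above each unstimulated library by little (0.26 ± 0.14, adjusted p = 0.1, not called, and -0.28 with library-size scaling) and below each LPS library (-1.14 ± 0.13, adjusted p = 8.5e-09). With IL-4 the libraries held 24.9, 26.0 and 32.4 CPM at 1 h and 11.5, 14.9 and 14.05 CPM at 18 h, and neither change was called (adjusted p = 0.99 and 0.81). IL-4 against LPS with IFNg at 18 h was called at -0.31 ± 0.14 (adjusted p = 0.046), with no overlap of the libraries, but the call was lost without LPS with IFNg replicate 1 or 3 (adjusted p = 0.095 and 0.12) or IL-4 replicate 1 or 3 (0.2 and 0.058), with DESeq2 (0.064) and with limma-voom (0.053). It turned to 0.17 with library-size scaling. In order of mean level, LPS at 1 h, LPS with IFNg at 1 h and LPS at 18 h were separate, IL-4 and unstimulated cells at 1 h overlapped, LPS with IFNg at 18 h was separate, and unstimulated cells and IL-4 at 18 h overlapped at the bottom.

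P2ry6, the UDP receptor known for phagocytosis and chemokine release, was at 165, 162 and 164 CPM in unstimulated libraries at 18 h. LPS libraries held 319.6, 354 and 308 CPM, LPS with IFNg libraries 188, 181 and 148 CPM and IL-4 libraries 224, 223 and 229 CPM. LPS and IL-4 each stood above the unstimulated libraries without overlap, by 1.00 ± 0.08 (adjusted p = 3e-12) and 0.46 ± 0.08 (adjusted p = 2.2e-05), and LPS with IFNg overlapped them (0.08 ± 0.08, adjusted p = 0.4). With library-size scaling the last value turned to -0.46 (adjusted p = 1.4e-06). LPS with IFNg was lower than LPS, with a log2 difference of -0.92 ± 0.08 (adjusted p = 4.5e-11). Group means at 1 h lay between 183 ± 8.29 and 222 ± 5.59 CPM and no stimulus gave a call (adjusted p = 0.84 for LPS, 0.11 for LPS with IFNg and 0.61 for IL-4). Unstimulated cells differed between 18 h and 1 h by -0.33 ± 0.08 (adjusted p = 0.0054). LPS at 18 h stood alone at the top, both IL-4 groups, LPS at 1 h and unstimulated cells at 1 h overlapped each with the next, and LPS with IFNg at 1 h and at 18 h and unstimulated cells at 18 h did so at the bottom.

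P2ry14, the receptor for UDP-glucose and related UDP-sugars, was at 4.74, 4.62 and 5.17 CPM in unstimulated libraries at 18 h. LPS libraries held 35.2, 39.2 and 45.4 CPM and LPS with IFNg libraries 127, 138 and 129.5 CPM. These 3 groups were far apart, and the changes were 3.04 ± 0.19 (adjusted p = 1.8e-14) with LPS and 4.76 ± 0.17 (adjusted p = 1.8e-20) with LPS and IFNg, a 27.0-fold rise. LPS with IFNg exceeded LPS by 1.72 ± 0.13 (adjusted p = 3.2e-12). The 4 group means at 1 h lay between 8.77 ± 2.00 and 10.9 ± 1.25 CPM, each overlapped the next in their order together with IL-4 at 18 h, and no stimulus gave a call (adjusted p from 0.25 to 0.97). IL-4 libraries at 18 h held 13.2, 7.24 and 6.11 CPM, with the first well above the other 2. The difference of 0.86 ± 0.23 (adjusted p = 0.0036) was called with all libraries and was 0.48 (adjusted p = 0.074), without IL-4 replicate 1. The lower unstimulated level at 18 h than at 1 h (-0.83 ± 0.24, adjusted p = 0.02) lost its call without unstimulated 1 h replicate 3 (-0.65, adjusted p = 0.14) and without unstimulated 18 h replicate 1 or 2 (adjusted p = 0.071 and 0.078).

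For Entpd1, LPS alone gave no call at either time. P2rx7 was close to this, since its only LPS call, at 18 h, was small and was lost under several alternatives. Entpd1 had its highest mean with LPS and IFNg at 18 h, as did P2ry14 and Adora2a. The unstimulated libraries at 18 h held 91.6, 92.3 and 117 CPM and the LPS libraries 114, 92.4 and 124 CPM. These overlapped, and the difference was 0.13 ± 0.13 (adjusted p = 0.37), or -0.28 (adjusted p = 0.047) with library-size scaling. LPS with IFNg libraries held 470.4, 464 and 489.9 CPM, above every other library of the study, which is a rise of 2.24 ± 0.12 (adjusted p = 4.9e-16) over unstimulated cells and of 2.11 ± 0.12 (adjusted p = 1.1e-14) over LPS. IL-4 libraries held 76.9, 54.4 and 59.9 CPM, below every other library of the study, a log2 change of -0.66 ± 0.13 (adjusted p = 0.00015) against unstimulated cells. Between IL-4 and LPS with IFNg at 18 h the difference was -2.90 ± 0.13 (adjusted p = 1.9e-18). Means at 1 h were 167 ± 22.8 CPM without stimulus, 163 ± 17.4 with LPS, 197 ± 15.7 with LPS and IFNg and 146 ± 20.3 with IL-4, and none of the 3 stimuli gave a call (adjusted p = 0.91, 0.14 and 0.57). The LPS with IFNg change (0.24 ± 0.12) was called with no filter, with a replicate block and without unstimulated replicate 3. Over all alternatives it ran from -0.02 to 0.36. LPS with IFNg lay above LPS at 1 h without overlap (0.27 ± 0.12, adjusted p = 0.19). That difference was called with no filter, with a replicate block and with only the groups compared. Unstimulated cells were lower at 18 h than at 1 h (-0.73 ± 0.12, adjusted p = 0.00013). The 4 groups at 1 h overlapped each with the next, and LPS and unstimulated cells at 18 h lay together below them.

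Counted together, LPS raised 3 of the 8 genes at 1 h (Adora2a, Adora2b and P2ry2) and lowered 0, against 22.2% of all tested genes called in either direction. At 18 h LPS raised 7 and lowered 0, against 63.1%. LPS with IFNg raised 3 at 1 h (29.4% of all genes called) and 5 at 18 h (72.2%), and lowered 0 at either time. Library-size scaling, which leaves out TMM, gave a median log2 change of all genes of -0.19 with LPS at 1 h, -0.41 with LPS at 18 h, -0.25 with LPS and IFNg at 1 h and -0.54 with LPS and IFNg at 18 h. With it these splits of higher and lower calls became 3 and 1 for LPS at 1 h, 6 and 1 for LPS at 18 h, 3 and 2 for LPS with IFNg at 1 h, and 5 and 2 for LPS with IFNg at 18 h. The calls added on the lower side were P2rx7 for LPS at 1 h, Entpd1 for LPS at 18 h, and P2rx7 and P2ry6 for LPS with IFNg at each time, while P2rx7 left the higher calls for LPS at 18 h. IL-4 raised 1 at 1 h (6.49%) and 4 at 18 h, where it lowered 1 (39.2%). The median log2 change of the 8 genes was 1.67 with LPS and 1.81 with LPS and IFNg at 18 h, where that of all tested genes was 0.0060 and -0.0046.

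**Figure D2:**
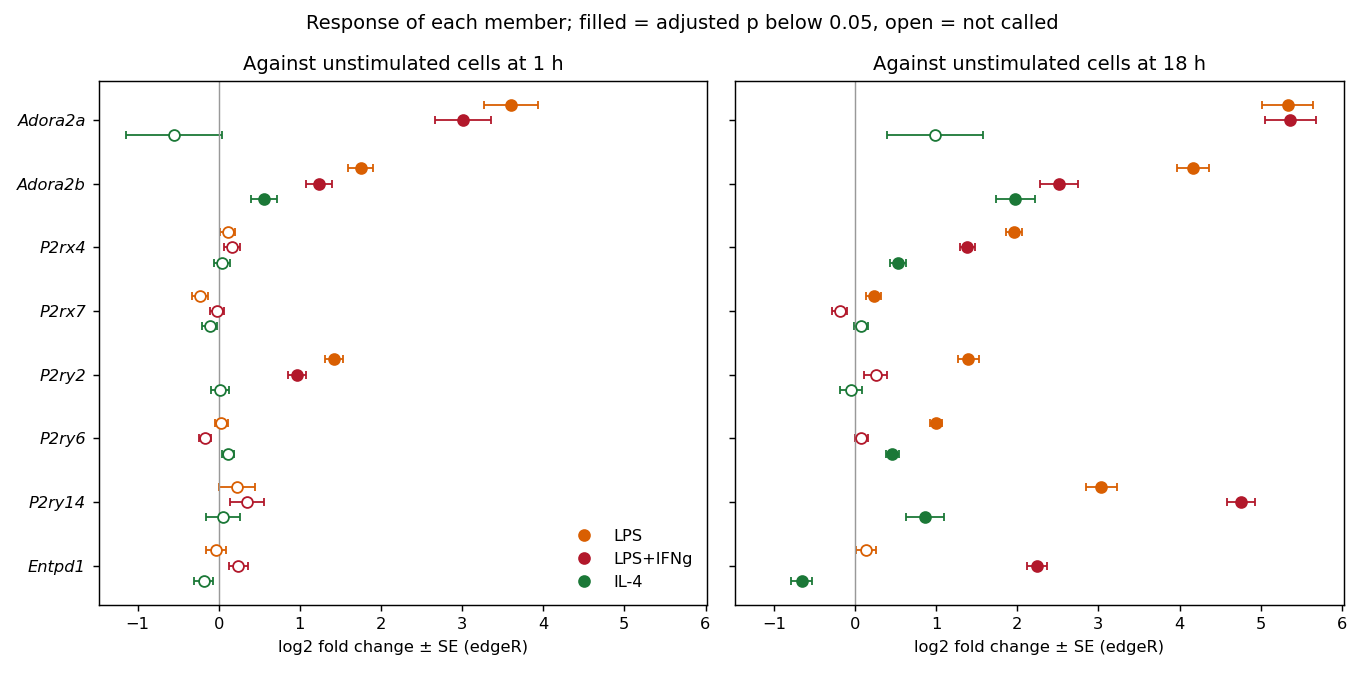
Log2 fold change against unstimulated cells of the same time, with bars for the SE, for LPS, LPS with IFNg and IL-4 at 1 h (left) and 18 h (right), and filled points for an adjusted p below 0.05. At 1 h the called changes are in Adora2a, Adora2b and P2ry2, and at 18 h Adora2a and P2ry14 lie at 5.37 and 4.76 with LPS and IFNg. With library-size scaling, P2rx7 and Entpd1 with LPS and P2ry2 and P2ry6 with LPS and IFNg at 18 h take negative values.

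The change over time in unstimulated cells was in 1 direction for the genes called. Of the 8 genes, 6 were lower at 18 h than at 1 h and 0 higher, where 12% of all tested genes were called. The calls of all genes leaned the same way, with 1022 lower and 511 higher. The log2 changes of the 6 ran from -0.33 ± 0.08 for P2ry6 to -2.25 ± 0.24 for Adora2b, while Adora2a (-0.83 ± 0.62, adjusted p = 0.44) and P2rx7 (-0.06 ± 0.09, adjusted p = 0.72) were not called. With library-size scaling 59.4% of all called genes were higher, and the median change of the 8 genes was -0.70. Since each stimulus is read against the unstimulated cells of its own time, a stimulated group at 18 h can stand above its control while at or below the unstimulated level at 1 h. Adora2b with IL-4 is such a case, with a mean of 9.77 ± 0.420 CPM at 18 h against 11.9 ± 1.17 CPM in unstimulated cells at 1 h.

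LPS with IFNg set against LPS divided the 8 genes at 18 h. The LPS dose of each group is not stated, so a difference in dose cannot be told apart from the added IFNg. P2ry14 and Entpd1 were higher with IFNg, Adora2b, P2rx4, P2rx7, P2ry2 and P2ry6 were lower, and Adora2a was not called. This is 2 higher and 5 lower, where 47.4% of all tested genes were called. The folds were 3.29 for P2ry14 and 4.31 for Entpd1 upward, and from 1.34 for P2rx7 to 3.14 for Adora2b downward. In the 1 h groups, 2 were lower (Adora2b and P2ry2) and 0 higher, where 11.8% of all genes were called. With library-size scaling 4 were lower at 1 h, with Adora2a (adjusted p = 0.043) and P2ry6 (0.0075) added. Entpd1 was added as higher at 1 h with no filter, with a replicate block and with only the groups compared. Marker sums of other cells also differed between these groups at 18 h. The 5 dendritic cell markers listed, of which 3 were tested, summed to 33.3 to 50.8 CPM with LPS and IFNg, 12.8 to 19.6 with LPS and 3.22 to 3.88 without stimulus, and Ccr7 made up most of the sum in both stimulated groups. Xcr1 went from 0.157 ± 0.271 CPM without stimulus to 3.33 ± 1.65 with LPS and 8.34 ± 2.43 with LPS and IFNg, Zbtb46 was at 1.31 ± 0.690 CPM with LPS and IFNg, and Flt3 and Siglech stayed at or under 1.09 CPM on average in these groups. The 7 neutrophil markers, of which 5 were tested, summed to 28.7 to 52.3 CPM with LPS and IFNg, 106 to 164 with LPS and 99.2 to 152 without stimulus. Elane was not tested and was at or under 0.566 CPM on average in each. From no stimulus to LPS the markers split. S100a8 went from 25.8 ± 7.36 to 56.0 ± 11.6 CPM and S100a9 from 52.6 ± 17.6 to 59.7 ± 15.5. Ngp went from 35.3 ± 5.38 to 18.4 ± 2.01 CPM and Camp from 3.88 ± 1.04 to 1.66 ± 0.718. The 6 erythroid and platelet markers, of which 2 were tested, summed to 23.9 to 29.5 CPM with LPS and IFNg, 228 to 337 with LPS and 138 to 152 without stimulus, nearly all of it Pf4, with Hbb-bs at 0. The 6 fibroblast and endothelium markers, of which 2 were tested, summed to 18.6 to 24.7, 14.2 to 22.9 and 3.88 to 4.39 CPM in the same order. Most of each sum was Kdr, at 18.9 ± 3.16, 12.3 ± 4.98 and 3.12 ± 0.542 CPM. Dcn was at 4.86 ± 1.16 CPM with LPS and 1.16 ± 0.226 with LPS and IFNg, and Cdh5 at 1.79 ± 0.616 with LPS. Col1a1, Col1a2 and Pdgfra stayed at or under 0.494 CPM on average in these groups. The part of these other cells in the results was not tested.

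**Figure D3:**
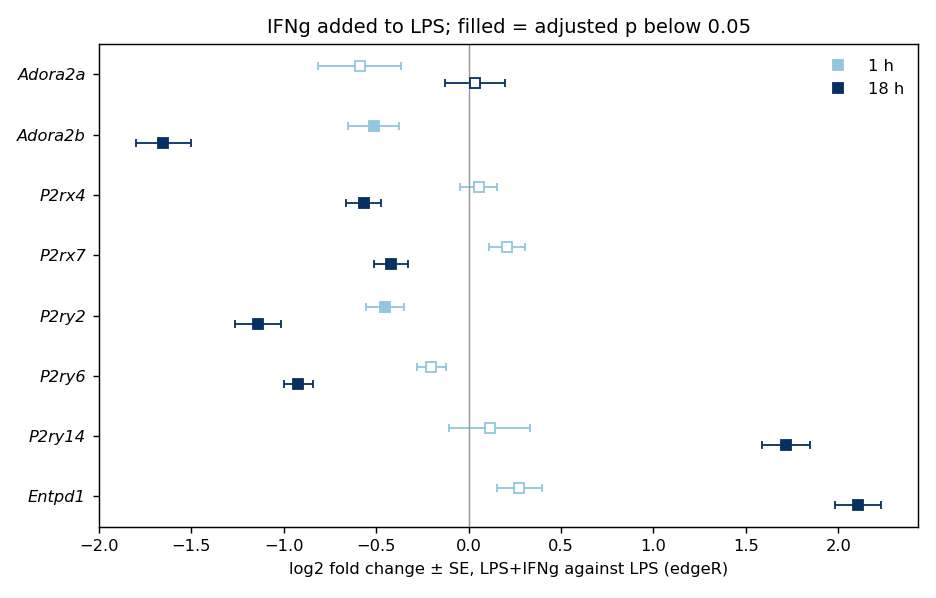
Log2 fold change of LPS with IFNg against LPS for each of the 8 genes at 1 h (light) and 18 h (dark), with bars for the SE and filled squares for an adjusted p below 0.05. At 18 h P2ry14 and Entpd1 lie at 1.72 and 2.11, Adora2a lies at 0.03, and the other 5 lie below 0.

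IL-4 set against LPS with IFNg at 18 h called all 8 genes, 2 higher with IL-4 (P2rx7 and P2ry6) and 6 lower, where 73.9% of all tested genes were called. The differences were -4.38 ± 0.26 (adjusted p = 3.6e-15) for Adora2a, which held 9, 4 and 4 reads with IL-4, and -3.89 ± 0.15 (adjusted p = 1.1e-19) for P2ry14. P2rx7 (0.26 ± 0.09, adjusted p = 0.0098) and P2ry6 (0.38 ± 0.08, adjusted p = 6.7e-05) were higher with IL-4 in all 3 libraries than in all 3 of the other group. With library-size scaling Adora2b and P2ry2 lost their calls, which left 2 higher and 4 lower.

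Whether a response differed between 18 h and 1 h was tested as an interaction. For LPS, 6 of the 8 genes had a higher log2 response at 18 h than at 1 h and 0 a lower one, where 54.2% of all tested genes were called. P2rx7, 1 of the 6, went from -0.23 ± 0.09 at 1 h to 0.23 ± 0.09 at 18 h. For LPS with IFNg, 5 were higher and 1, P2ry2, was lower, where 64% were called. For IL-4, 3 were higher and 0 lower, where 21.5% were called.

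Per length, P2ry6 gave the largest mean share of the 7 receptors' summed RPKM in every group, from 39.0% with LPS and IFNg at 18 h to 61.5% without stimulus at 18 h. With LPS and IFNg at 18 h its share of 39.0 ± 3.03% did not differ beyond the SD from the 37.1 ± 1.05% of P2rx4. P2rx4 came next in every group, between 20.4% with LPS at 1 h and 37.1% with LPS and IFNg at 18 h. Adora2b went from 1.46% without stimulus at 18 h to 13.8% with LPS at 1 h, and Adora2a from 0.107% with IL-4 at 1 h to 3.46% with LPS and IFNg at 18 h. Adora2b exceeded Adora2a per length in all 24 libraries. The ratio of Adora2a to Adora2b RPKM was 0.699 ± 0.202 with LPS and IFNg at 18 h, where the libraries ran from 0.575 to 0.932, against 0.212 ± 0.0420 with LPS and 0.0885 ± 0.0521 without stimulus at that time. P2ry14 reached 7.78% with LPS and IFNg at 18 h, from 0.474% without stimulus. Its union of annotated exons, 11059 bases, is the longest of the 8 and makes its RPKM low for its count.

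**Figure D4:**
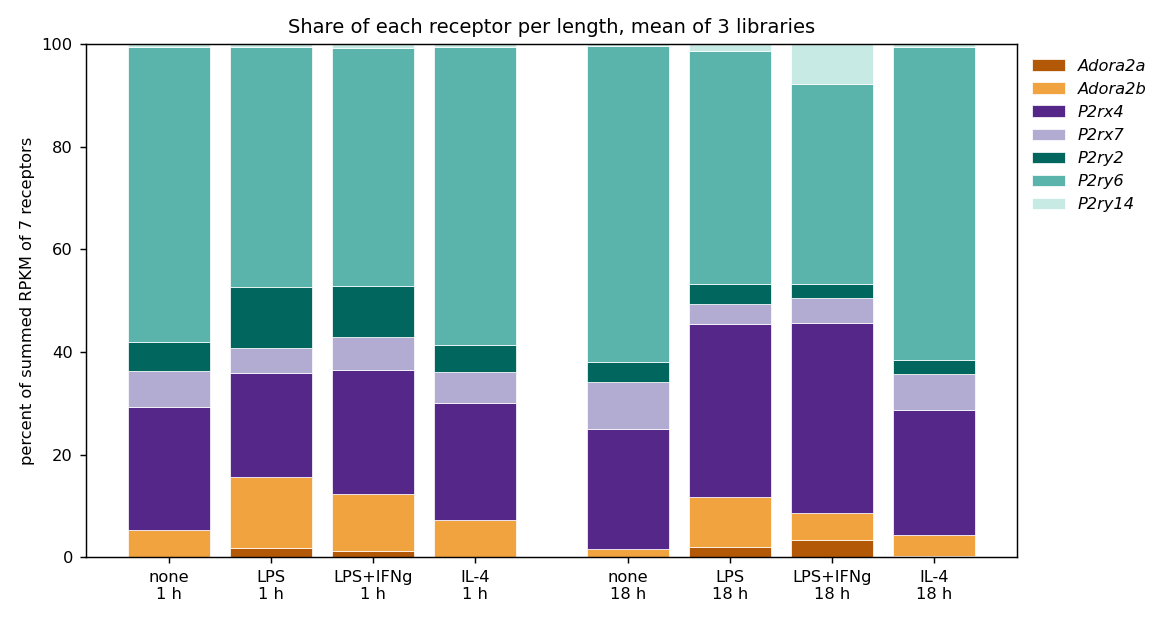
Share of each of the 7 receptors in their summed RPKM (percent, linear axis from 0 to 100), as the mean of 3 libraries in each group. P2ry6 takes 39.0% to 61.5% in every group, and the Adora2b and P2ry2 bands are widest with LPS at 1 h.

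The rest of the purinergic pathway was read from 45 further genes, of which 44 were in the count tables and 30 were tested. With LPS at 18 h, 10 rose and 13 fell (63.1% of all tested genes called), and with LPS and IFNg 7 rose and 18 fell (72.2%). With library-size scaling these became 7 and 19, and 6 and 20. The counts at 1 h were 3 and 2 with LPS (22.2%), 8 and 3 with LPS and IFNg (29.4%), and 4 and 2 with IL-4 (6.49%), and library-size scaling gave 3 and 7, 7 and 11, and 4 and 2. With IL-4 at 18 h, 7 rose and 9 fell (39.2%). Without the second libraries of LPS and of IL-4 at 18 h, the counts were 8 and 14 for LPS and 6 and 6 for IL-4 at 18 h. The median log2 change of the 30 was -0.26 with LPS and -0.47 with LPS and IFNg at 18 h, or -0.69 and -1.01 with library-size scaling. Called changes of at least 1 log2 unit that are named next kept their direction and, unless a loss is given, their call under each alternative that tested them.

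Of the other receptors tested, Adora3, a Gi-coupled adenosine receptor, rose from 1.32 ± 0.214 CPM to 4.87 ± 1.01 with LPS (1.86 ± 0.33, adjusted p = 1.6e-05) and 4.25 ± 1.34 with LPS and IFNg at 18 h (1.67 ± 0.34, adjusted p = 6.3e-05). At 1 h it went from 0.549 ± 0.245 CPM to 3.49 ± 0.481 with LPS and IFNg (2.58 ± 0.42, adjusted p = 1.2e-05). Like Adora2a, Adora3 was low without stimulus and passed the filter on low counts through groups where it was high. It shares exon bases with Tmigd3 on the same strand, so its counts are uncertain. Its lower level with IL-4 at 18 h (-1.28 ± 0.49, adjusted p = 0.038) lost the call with DESeq2, with no filter and without unstimulated replicate 1 or 2 or IL-4 replicate 2 or 3. P2rx3, an ATP-gated channel, fell at 18 h with LPS (-1.07 ± 0.27, adjusted p = 0.00088) and with LPS and IFNg (-1.37 ± 0.27, adjusted p = 5.6e-05). P2ry12, an ADP receptor, fell at 18 h with LPS and IFNg (-1.28 ± 0.32, adjusted p = 0.00076) and with IL-4 (-1.81 ± 0.32, adjusted p = 4.6e-05). P2rx3 and P2ry12 share a few exon bases with Ssrp1 and Med12l on the opposite strand. P2ry13, also an ADP receptor, rose from 1.49 ± 0.242 to 4.95 ± 0.375 CPM with LPS and IFNg at 1 h (1.71 ± 0.37, adjusted p = 0.00047). Its mean at 18 h was low too, at 1.81 ± 0.864 CPM without stimulus, 4.36 ± 2.16 with LPS and 0.769 ± 0.583 with IL-4. Its rise with LPS at 18 h (1.24 ± 0.36, adjusted p = 0.0038) lost the call without LPS replicate 3, and its fall with IL-4 at 18 h (-1.35 ± 0.49, adjusted p = 0.03) without unstimulated replicate 2 or 3 or IL-4 replicate 2. Neither IL-4 call of Adora3 and P2ry13 at 18 h passed a threshold of 0.01.

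Among genes that handle adenosine, 5 of the 7 tested fell with LPS and IFNg at 18 h and 2 rose, where 72.2% of all tested genes were called. Slc29a2, 1 of the 5, lost its call at a threshold of 0.01. Slc29a1, the main equilibrative nucleoside transporter of the plasma membrane, went from 89.6 ± 7.02 CPM to 14.1 ± 1.41 CPM (-2.66 ± 0.10, adjusted p = 6.6e-20), and was also lower with LPS (-1.49 ± 0.09, adjusted p = 8.7e-15). Adk, the kinase that returns adenosine to AMP, went from 27.5 ± 3.01 to 5.38 ± 1.33 CPM (-2.36 ± 0.15, adjusted p = 1.2e-14). Ahcy, which releases adenosine from S-adenosylhomocysteine, fell by 2.38 on the log2 scale, and Ada, adenosine deaminase, was at 0.879 ± 0.106 CPM against 3.87 ± 1.76 (-2.11 ± 0.38, adjusted p = 1.6e-05). LPS alone at 18 h also lowered Ahcy (-1.57 ± 0.13, adjusted p = 4.4e-12), Adk (-0.82 ± 0.12, adjusted p = 1.3e-06) and Ada (-1.17 ± 0.34, adjusted p = 0.0036). That Ada call was lost without unstimulated replicate 3. Slc29a2 was not called with LPS alone (-0.49 ± 0.26, adjusted p = 0.12). Slc28a2, a sodium-coupled concentrative nucleoside transporter, rose from 25.7 ± 2.67 CPM to 385 ± 22.0 CPM with LPS (3.91 ± 0.11, adjusted p = 1.6e-22) and to 388 ± 8.36 CPM with LPS and IFNg (3.92 ± 0.11, adjusted p = 8.8e-23). With LPS and IFNg it was higher already at 1 h (1.48 ± 0.11, adjusted p = 4.8e-12), where LPS gave 0.06 ± 0.13 (adjusted p = 0.82). Slc29a3, a lysosomal nucleoside transporter, rose at 18 h with LPS (1.22 ± 0.12, adjusted p = 2e-10) and with LPS and IFNg (1.71 ± 0.12, adjusted p = 5.6e-14).

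Of the ATP release genes, Panx1, the pannexin channel, rose to 71.9 ± 6.73 CPM with LPS and IFNg at 18 h from 19.0 ± 0.944 (1.92 ± 0.14, adjusted p = 1.7e-13). Slc17a9, the vesicular nucleotide transporter, went the other way, from 9.87 ± 0.652 to 1.30 ± 0.0489 CPM (-2.91 ± 0.25, adjusted p = 1.6e-11). With LPS alone at 18 h, Panx1 changed by 0.47 ± 0.15 (adjusted p = 0.008) and Slc17a9 by -1.06 ± 0.19 (adjusted p = 2.1e-05). Gja1, the gap junction protein connexin 43, rose at 1 h from 2.10 ± 0.587 CPM to 13.4 ± 2.18 with LPS and 67.4 ± 0.414 with LPS and IFNg (5.01 ± 0.17, adjusted p = 5.9e-21). At 18 h it was still raised with LPS (1.94 ± 0.23, adjusted p = 1.5e-08) and not called with LPS and IFNg (0.35 ± 0.28, adjusted p = 0.29). Of 11 further enzymes that hydrolyse nucleotides, 5 were tested and all 5 fell with LPS and IFNg at 18 h, where 72.2% of all tested genes were called. Entpd4, Entpd5, Entpd6 and Entpd7, named here after their values were seen, encode relatives of CD39 that are mainly intracellular or secreted, changed by less than 1 log2 unit, and Entpd6 lost its call at a threshold of 0.01. Enpp1, a surface enzyme that cleaves ATP to AMP and pyrophosphate, was at 2.59 ± 0.768 CPM against 19.5 ± 1.10 (-2.87 ± 0.17, adjusted p = 4.5e-15). LPS alone at 18 h lowered it as well (-0.92 ± 0.13, adjusted p = 6.6e-07). Nt5e, the gene of CD73, which acts after CD39, did not pass the filter, and its group means lay between 0.0631 and 0.733 CPM. Of the other P2Y receptors, P2ry1, a receptor for ADP, rose with IL-4 at 1 h to 47.9 ± 1.59 CPM from 10.7 ± 1.54 (2.18 ± 0.12, adjusted p = 1.3e-14) and stood at 53.1 ± 3.71 CPM at 18 h (2.49 ± 0.12, adjusted p = 2.3e-16), and it fell with LPS (-2.55 ± 0.23, adjusted p = 6.8e-11) and with LPS and IFNg (-2.35 ± 0.22, adjusted p = 7.8e-11). P2ry1 shares exon bases with Gm37035 on the opposite strand, and whether the counting used strand is not given in the sources used here.

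In the cyclic AMP arm that adenosine receptors feed, Pde4b, a phosphodiesterase that degrades cyclic AMP, went from 6.13 ± 1.16 CPM to 326 ± 4.98 with LPS and 645 ± 20.0 with LPS and IFNg at 1 h, and to 36.2 ± 3.63 with IL-4. These were changes of 5.75 ± 0.13 (adjusted p = 1.7e-24), 6.73 ± 0.13 (adjusted p = 2.2e-26) and 2.57 ± 0.15 (adjusted p = 1.3e-13). Pde4b at 18 h was still above unstimulated cells by 3.76 ± 0.15 with LPS and 4.21 ± 0.15 with LPS and IFNg. Crem, a cyclic AMP-responsive transcription factor, rose with LPS and IFNg to 76.5 ± 9.84 CPM at 1 h (2.50 ± 0.12, adjusted p = 4.2e-17) and 100.3 ± 9.72 CPM at 18 h (3.51 ± 0.12, adjusted p = 1.1e-20). With LPS alone it gave -0.29 ± 0.16 (adjusted p = 0.23) at 1 h and 1.17 ± 0.15 (adjusted p = 7e-08) at 18 h. The adenylyl cyclases Adcy7 and Adcy9 fell with LPS and IFNg at 18 h, by 2.08 and 1.63 on the log2 scale, from 459.5 ± 10.9 and 29.4 ± 4.58 CPM. With LPS alone at 18 h they changed by -0.88 ± 0.10 (adjusted p = 1.6e-08) and -1.28 ± 0.18 (adjusted p = 3.5e-07). Crem and Slc29a1 each share exon bases with a predicted gene on the opposite strand, with the same limit on strand as for P2ry1.

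**Figure D5:**
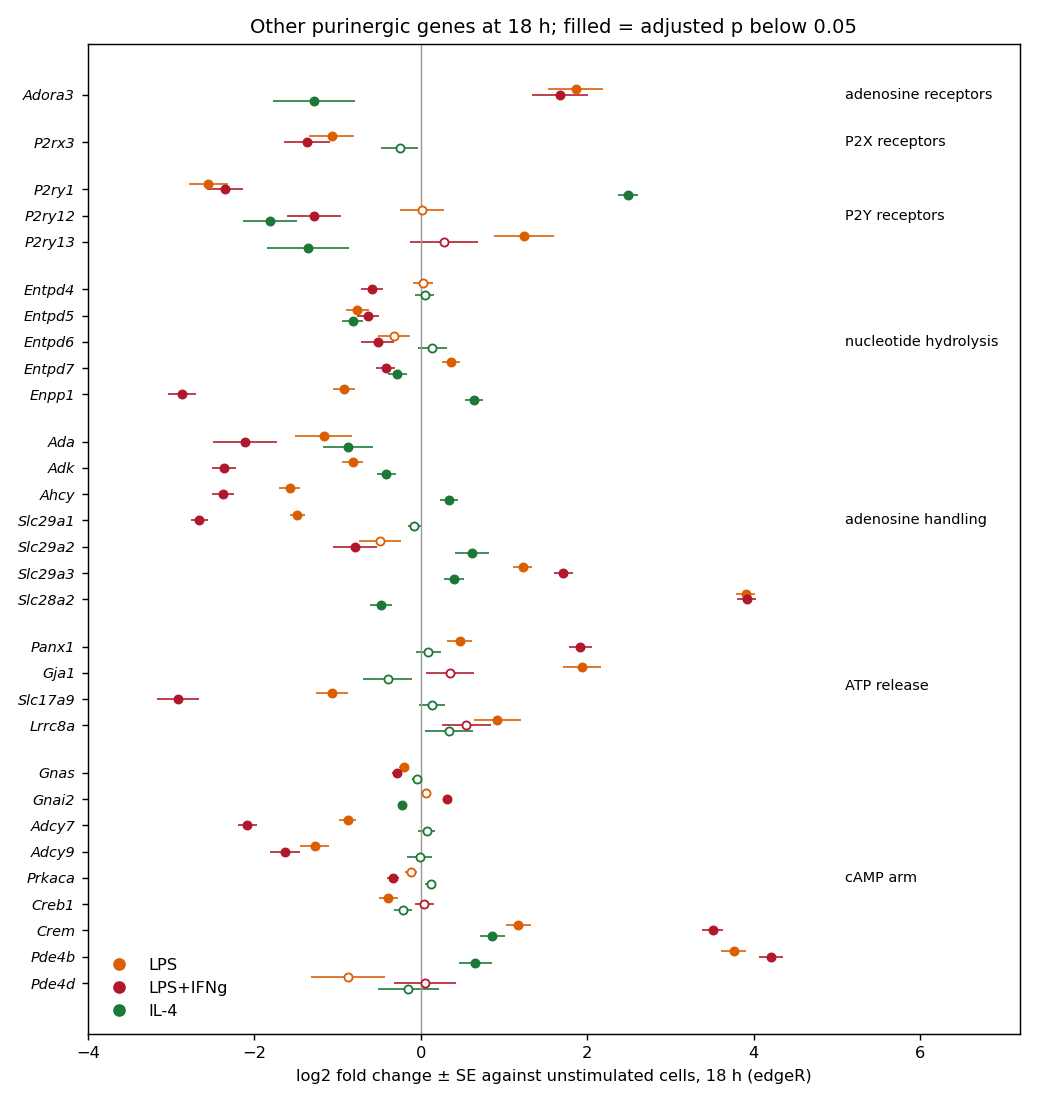
Log2 fold change at 18 h against unstimulated cells for the 30 tested genes of the further purinergic list, in blocks by role, with bars for the SE and filled points for an adjusted p below 0.05. Slc28a2 and Pde4b lie furthest to the right with LPS and with LPS and IFNg, and Slc17a9, Enpp1 and Slc29a1 furthest to the left with LPS and IFNg.

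The genes whose profile over the 8 group means was most like that of a member were found by the root mean square distance of centred log2 CPM values, for the 5 members with a range of at least 2 log2 units. For Adora2a these were Sod2 (distance 0.41), Rapgef2 (0.43) and Xcr1 (0.49), and for Adora2b they were Zc3h12a (0.60), Igsf6 (0.70) and P2ry2 itself (0.72). For P2ry2 they were Pik3r5 (0.30), St3gal1 (0.31) and Zfp263 (0.32). Tap2 (0.26), Sp140 (0.27) and H2-T23 (0.31) lay nearest to P2ry14, and Hpse (0.22), Hivep2 (0.24) and Myo10 (0.24) nearest to Entpd1. Distances for Adora2b were larger than those of the other 4, so its profile had no close match among the genes searched. Tested genes with the symbol of a predicted gene or clone were left out of this search. P2rx4, P2ry6 and P2rx7 ranged over 1.96, 0.99 and 0.40 log2 units, and no gene is named for them.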

How the data were processed

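The 24 poly(A) RNA libraries were prepared with a stranded kit, per the labels' protocols. The authors deposited raw counts per Ensembl gene. The submitters' processing notes name STAR, featureCounts, DESeq2, deepTools and GRCm38, and versions and the strand setting of counting are not given in the sources used here. Of 43629 identifiers per library, 42462 matched GENCODE M21.

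Counts were scaled by TMM and filtered with filterByExpr (minimum count 10), which left 12765 genes and removed 30864. A quasi-likelihood model with 1 term per group was fitted to all 24 libraries in edgeR 4.0.16 (R 4.3.3), tested on simulated counts first, and gave 10 comparisons of groups and 3 interaction tests. Every adjusted p is two-sided, by Benjamini-Hochberg over all tested genes, with calls below 0.05. The SE is the log2 fold change divided by the square root of F, and 95% intervals take a normal spread. CPM used TMM-scaled library sizes, and RPKM the union of annotated exons. Replicate numbers were not used as pairs in the main fit. Correlations of same-numbered libraries ran from -0.091 to 0.231 and 13 of 30 exceeded 0.1, all 3 only for IL-4 at 1 h. Most were above 0, and a shared replicate effect was examined only by the replicate block among the alternatives.

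Alternatives were median-of-ratios and library-size scaling, no filter, DESeq2 1.42.0, limma-voom (limma 3.58.1), only the groups compared, a replicate block, a threshold of 0.01 and each library left out. Leaving out the second libraries of LPS and of IL-4 at 18 h together was chosen after seeing the data. The members and lists were chosen with earlier results of these data known. Named beyond the members were listed purinergic genes called with a log2 change of at least 1 in some comparison. The 3 genes nearest in profile to each member with a range of at least 2 were also named, with predicted genes left out.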

Additional observations from a re-analysis of the deposited data

Results flagged for a closer look

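The response of several of the 8 genes differed between 18 h and 1 h by the interaction test of edgeR, given here as the log2 response at 18 h minus that at 1 h.

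For LPS the difference was 1.73 ± 0.66 (adjusted p = 0.028) for Adora2a, 2.42 ± 0.28 (adjusted p = 1.4e-08) for Adora2b and 1.84 ± 0.14 (adjusted p = 2.1e-12) for P2rx4. It was 0.46 ± 0.13 (adjusted p = 0.0035) for P2rx7, 0.96 ± 0.11 (adjusted p = 1.6e-08) for P2ry6 and 2.81 ± 0.30 (adjusted p = 3.9e-09) for P2ry14. The Adora2a call was lost with library-size scaling (adjusted p = 0.051), without unstimulated 1 h replicate 1 (1.53, adjusted p = 0.11), and without unstimulated 18 h replicate 2 (1.60) or 3 (1.39). Unstimulated Adora2a rests on 4, 2 and 1 reads in the 3 libraries at 18 h. The P2rx7 call was lost with library-size scaling (0.23, adjusted p = 0.16).

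For LPS with IFNg the difference was 2.35 ± 0.66 (adjusted p = 0.0029) for Adora2a, 1.28 ± 0.30 (adjusted p = 0.00045) for Adora2b and 1.22 ± 0.14 (adjusted p = 6.4e-09) for P2rx4. P2ry2 had a lower response at 18 h than at 1 h (-0.71 ± 0.18, adjusted p = 0.001). P2ry14 (4.41 ± 0.29, adjusted p = 6.8e-14) and Entpd1 (2.00 ± 0.17, adjusted p = 2.6e-11) responded at 18 h and gave no call at 1 h in the main fit. Some alternatives did call Entpd1 at 1 h. For IL-4 the difference was 1.42 ± 0.30 (adjusted p = 0.00079) for Adora2b, 0.49 ± 0.14 (adjusted p = 0.01) for P2rx4 and 0.35 ± 0.11 (adjusted p = 0.023) for P2ry6. The P2ry6 call was lost without unstimulated 1 h replicate 3 (0.31, adjusted p = 0.064) or IL-4 1 h replicate 2 (0.33, adjusted p = 0.053). In unstimulated cells 6 of the 8 genes were lower at 18 h than at 1 h, which enters each of these differences.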

How the results depend on the processing

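Over the log2 changes of the 8 genes, 1561 alternative values kept their side of the threshold, 44 lost a call, 35 gained one and 4 changed sign with a call on either side. Counts of calls are not among these values. They were judged apart, as moved when they changed by more than 1.5 times. Some of the 1561 that were never called changed sign, such as P2ry2 with LPS and IFNg at 18 h (-0.28 with library-size scaling). The 4 with a call were all with library-size scaling: Entpd1 with LPS at 18 h (-0.28), P2rx7 with LPS at 18 h (-0.19), P2ry6 with LPS and IFNg at 18 h (-0.46) and P2ry2 for IL-4 against LPS with IFNg at 18 h (0.17). That scaling also raised the calls for LPS with IFNg from 3 to 5 against unstimulated cells at 1 h and from 2 to 4 against LPS at 1 h. At a threshold of 0.01 the calls were 0 for IL-4 at 1 h, 1 for LPS with IFNg against LPS at 1 h and 1 for the IL-4 interaction. limma-voom gave 0 for IL-4 at 1 h, and testing all genes without the filter gave 5 for the IL-4 interaction. Leaving out 1 library at a time gave 0 to 1 calls for IL-4 at 1 h and 1 to 3 for LPS with IFNg against LPS at 1 h. Apart from library-size scaling and the threshold, the cause of these changes was not tested. Same-numbered libraries were not treated as pairs, although all 3 correlations exceeded 0.1 in 1 of the 10 comparisons, IL-4 at 1 h (0.133, 0.231 and 0.164), where the block left the Adora2b call (0.54). With the replicate block, calls were 7 for LPS and 5 for LPS with IFNg at 18 h, as without it, and Entpd1 was added for LPS with IFNg at 1 h, against unstimulated cells (0.24) and against LPS (0.27), and for the IL-4 interaction (-0.46). With only the groups compared, Adora2a fell under the filter and gave no value for IL-4 at 1 h and 18 h, for the IL-4 interaction or for unstimulated cells over time. Depth limits Adora2a most, which held 1 to 4 reads in each unstimulated library at 18 h.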
